A study of Mus musculus with 33 samples.

Results

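A set of 9 enzymes of amino acid and betaine breakdown was followed through the kidney of a lupus model driven by interferon alpha: Bhmt, Bhmt2, Hpd, Hgd, Fah, Dmgdh, Sardh, Gatm and Hdc. They were picked by name, knowing from earlier results that their signal was low in the late kidneys of these mice, so the levels at weeks 7 and 9 chose them and are given below as a description with no test. Of the 9 genes, 8 had a probe set annotated to a single gene symbol and were measured, out of 17097 genes with such a probe set, and Gatm was not analysed here. Where a gene had several such probe sets, the brightest stood for it, and 12 probe sets covered the 8 genes.

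The mice were females of the BWF1 strain (NZB X NZW F1), the hybrid of the NZB and NZW strains that develops lupus on its own. Kidneys of 30 mice were taken 1, 2, 3, 5, 7 or 9 weeks after a single intravenous adenovirus that expresses interferon alpha (Adv-IFNα), 5 mice a week, and kidneys of 3 mice had no treatment. The mice were 8 or 9 weeks old at delivery, and the sources used here differ on which. An empty-vector group was not analysed here, so virus and interferon cannot be told apart, and the labels give no age for the untreated mice. Each kidney was hybridised to 1 Affymetrix HT MG-430 PM array, and levels are log2 RMA intensities, on which a difference of 1 is a 2-fold change. Levels are compared between groups for 1 gene and not between genes, since probes differ in brightness. Groups were compared with untreated kidneys in 1 limma fit over the 33 arrays, with p-values adjusted by the Benjamini-Hochberg method over 45037 probe sets and a threshold of 0.05.

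The array medians were alike (3.97 to 4.10 in treated and 4.01 to 4.07 in untreated kidneys), and any 2 arrays correlated at r = 0.965 to 0.994 across probe sets. The log2 3' over 5' signal ratio of beta-actin, often read as a sign of RNA integrity, was 1.68 to 2.19 in treated and 1.47 to 1.75 in untreated kidneys. Kidney identity was clear: Umod, made by the thick ascending limb, was at 10.96 to 11.33 in treated and 10.76 to 10.97 in untreated kidneys. These are whole-kidney RNA samples, in which fewer cells of a type and less RNA per cell cannot be told apart.

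Cells break down most amino acids in mitochondria and cytosol through short chains of enzymes, and in mammals many of them are most active in the liver and in the proximal tubule of the kidney, which takes back the amino acids that the glomerulus filters. Bhmt moves a methyl group from betaine to homocysteine, which yields methionine and dimethylglycine, and Dmgdh and Sardh then strip the remaining methyl groups from dimethylglycine and sarcosine to leave glycine. Bhmt2 is the close relative of Bhmt that remakes methionine with S-methylmethionine as donor. Hpd, Hgd and Fah are successive steps of tyrosine breakdown, ending in fumarate and acetoacetate. Gatm starts creatine synthesis from arginine and glycine, and Hdc makes histamine from histidine.

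In the genome (RefSeq, GRCm38.p6) 3 of the enzymes of the betaine route are neighbours. Bhmt (chr13:93616891-93637758, minus strand), Bhmt2 (chr13:93656097-93674302, minus strand) and Dmgdh (chr13:93674436-93752823, plus strand) lie within 136 kb that hold 4 annotated genes. Bhmt2 and Dmgdh start back to back, with 133 bases between their starts. Of 27025 genes, 9.45% had an opposite-strand neighbour starting within 300 bases upstream, as did 2 of the 9 enzymes. Hpd lies on chromosome 5, Hgd on 16, Fah on 7, and Sardh, Gatm and Hdc on 2.

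The sequence between the starts of Bhmt2 and Dmgdh (chr13:93674303-93674435, plus strand, 69.9% G or C) is shown because the 2 genes share it, and the 250 bases upstream of Bhmt (chr13:93637759-93638008) and of Hpd (chr5:123182724-123182973), both minus strand, because these 2 genes had the lowest late signals relative to untreated kidneys. Capitals mark AGGTCA, a half-site of many nuclear receptors, a motif chosen after the sequences had been read.
Bhmt2 to Dmgdh: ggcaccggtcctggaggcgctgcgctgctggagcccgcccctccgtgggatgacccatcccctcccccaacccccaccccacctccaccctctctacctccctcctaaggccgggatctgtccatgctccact
Bhmt upstream: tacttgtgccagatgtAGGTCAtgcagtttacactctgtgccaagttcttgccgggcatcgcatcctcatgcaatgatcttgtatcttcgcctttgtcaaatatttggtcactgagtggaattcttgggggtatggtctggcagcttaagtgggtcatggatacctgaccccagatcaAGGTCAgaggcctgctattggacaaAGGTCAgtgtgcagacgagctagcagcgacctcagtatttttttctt
Hpd upstream: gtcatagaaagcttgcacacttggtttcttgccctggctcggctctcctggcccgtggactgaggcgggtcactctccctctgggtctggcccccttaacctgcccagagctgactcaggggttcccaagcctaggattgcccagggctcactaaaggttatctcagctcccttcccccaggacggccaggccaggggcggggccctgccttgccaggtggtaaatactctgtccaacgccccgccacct

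AGGTCA was searched on both strands of the 250 bases upstream of an annotated transcription start of each gene. For Hgd, Sardh and Hdc the start used lies inside the gene, and so does the window searched. It occurred 3 times in the window of Bhmt, without overlap, and 1 time each in those of Hgd, Sardh and Gatm. That made 4 of the 9 windows, against 14% of 32851 mouse promoters of that length. GTTAAT, part of the site of the tubule factor HNF1, was in 6.43% of all promoters, and CAAAGTCCA, the core of HNF4 sites, in 0.384%. Neither was found in any of the 9 windows. Only exact matches were counted, and for strings this rare absence from 9 windows tells little. A match or its absence describes these letters only and says nothing of binding.

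Bhmt had the widest range of the 8 enzymes. In the kidneys of week 7 its level was 3.51, 2.58, 3.00, 6.67 and 2.16, and in those of week 9 it was 3.75, 6.38, 6.53, 3.69 and 3.27, against 7.85, 7.57 and 7.67 in untreated kidneys. All 10 late kidneys lay below the lowest untreated one, but 3 of them, week 7 replicate 4 and week 9 replicates 2 and 3, stood far above the other late kidneys. The mean differed from untreated by -4.11 at week 7 and -2.98 at week 9 on the log2 scale (SE 0.64 each), which left 5.78% and 12.7% of the untreated signal on the linear scale. Its average level stood at percentile 43.1 of all probe sets at week 7 and at percentile 88.9 in untreated kidneys, while the median of the control probes that match no gene was 1.33 to 1.68 in treated and 1.54 to 1.84 in untreated kidneys.

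**Figure D1:**
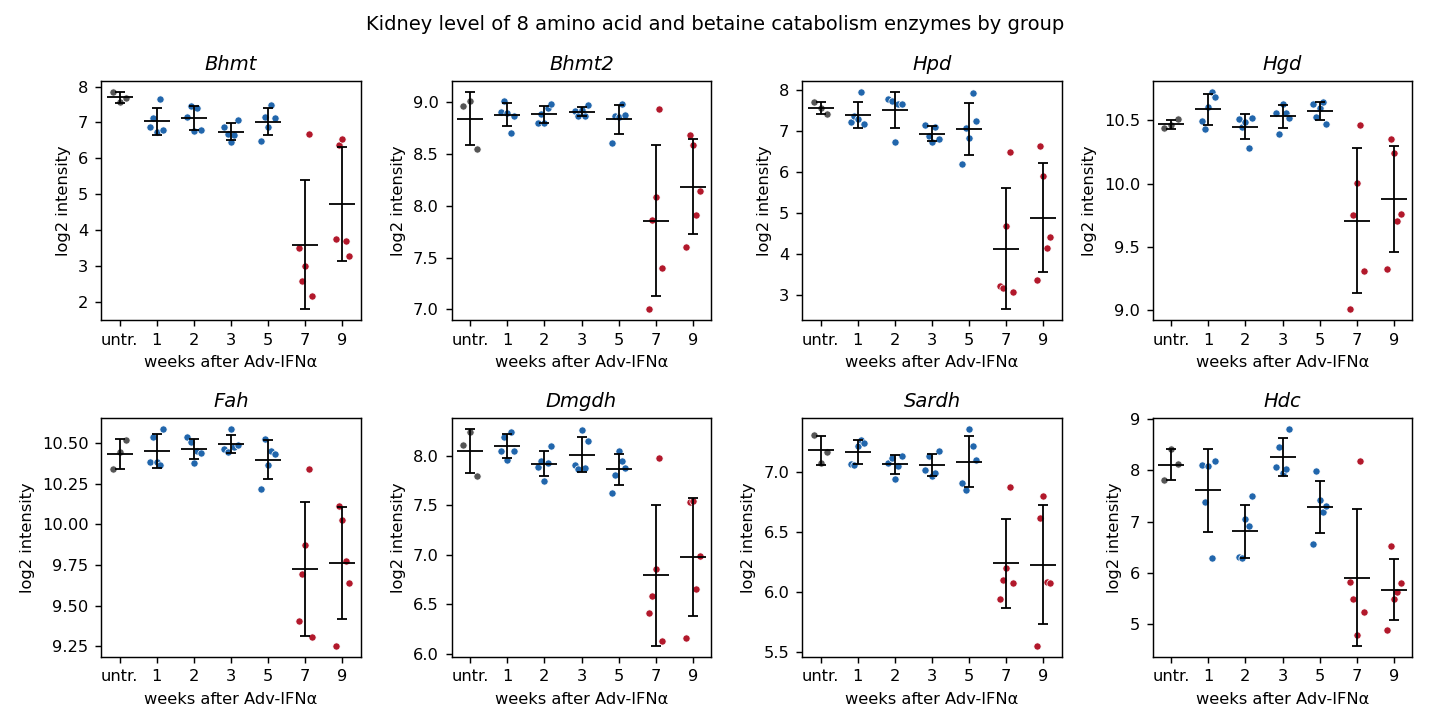
Log2 RMA intensity of the 8 measured enzymes (vertical axis, scaled per gene and not from 0) in untreated kidneys (untr., n = 3) and 1, 2, 3, 5, 7 and 9 weeks after Adv-IFNα (n = 5 each). Points are kidneys, long bars means and whiskers SD. In Bhmt and Hpd, 1 kidney of week 7 and 2 of week 9 sit far above the others of their week.

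Hpd, which turns 4-hydroxyphenylpyruvate into homogentisate, came next. It was at 3.20, 3.17, 4.68, 6.46 and 3.06 in week 7 and at 3.36, 6.61, 5.88, 4.13 and 4.41 in week 9, against 7.69, 7.54 and 7.41 in untreated kidneys. Its late and untreated kidneys did not overlap, and the same 3 late kidneys were again the highest. The difference from untreated was -3.43 at week 7 and -2.67 at week 9 (SE 0.55 each), or 10.8-fold and 6.35-fold lower.

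The next steps of tyrosine breakdown differed less from untreated kidneys. Hgd, which opens the ring of homogentisate, was at 9.01, 9.76, 10.01, 10.46 and 9.31 in week 7 and at 9.33, 10.35, 10.24, 9.71 and 9.76 in week 9, against 10.44, 10.46 and 10.51 in untreated kidneys. Fah, the last step, was at 9.41, 9.70, 9.87, 10.34 and 9.31 in week 7 and at 9.25, 10.11, 10.03, 9.77 and 9.64 in week 9, against 10.34, 10.44 and 10.52 in untreated kidneys. In both genes week 7 replicate 4 reached the untreated range, and every other late kidney lay below it. The differences were -0.76 and -0.59 for Hgd (SE 0.20) and -0.71 and -0.67 for Fah (SE 0.16) at weeks 7 and 9. At week 7 Hgd and Fah were both at percentile 97.1 of all probe sets, against 98.7 in untreated kidneys. On the brightest probe sets Hpd was 10.8-fold lower at that week, and Hgd and Fah were 1.69-fold and 1.63-fold lower. A dimmer second probe set of Hgd differed by -1.11 and -1.06, so the size of its change depended on the probe set.

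Dmgdh, which demethylates dimethylglycine in mitochondria, was at 6.41, 6.59, 6.85, 7.98 and 6.13 in week 7 and at 6.16, 7.54, 7.54, 6.65 and 6.99 in week 9, against 8.12, 8.24 and 7.80 in untreated kidneys. Sardh, which demethylates sarcosine, was at 5.94, 6.10, 6.20, 6.88 and 6.07 in week 7 and at 5.55, 6.61, 6.80, 6.08 and 6.07 in week 9, against 7.31, 7.07 and 7.16 in untreated kidneys. Sardh did not overlap with untreated kidneys at either week, and in Dmgdh 1 late kidney, week 7 replicate 4, overlapped. The differences were -1.26 and -1.07 for Dmgdh (SE 0.26) and -0.94 and -0.96 for Sardh (SE 0.19) at weeks 7 and 9. A second probe set of Sardh differed by -0.88 and -0.66.

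Bhmt2, the neighbour of Bhmt and Dmgdh, was at 7.00, 7.86, 8.09, 8.94 and 7.40 in week 7 and at 7.60, 8.69, 8.59, 7.92 and 8.14 in week 9, against 8.97, 9.02 and 8.55 in untreated kidneys. Week 7 replicate 4 and week 9 replicates 2 and 3 lay inside the untreated range here. The difference was -0.99 at week 7 and -0.66 at week 9 (SE 0.24), and -1.15 and -0.75 on a second probe set. At week 7 Bhmt was 17.3-fold and its relative Bhmt2 1.98-fold lower, and Dmgdh, which starts 133 bases from Bhmt2, was 2.39-fold lower.

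Hdc was at 5.83, 5.49, 4.79, 8.19 and 5.25 in week 7 and at 4.89, 6.53, 5.50, 5.63 and 5.81 in week 9, against 7.81, 8.41 and 8.11 in untreated kidneys. Week 7 replicate 4 lay inside the untreated range, and the other late kidneys lay below it. The differences were -2.20 and -2.44 (SE 0.48), or 4.60-fold and 5.43-fold lower, and on a second, dimmer probe set -0.79 and -1.17 (SE 0.29). Mast cells are another known source of Hdc, and the 9 mast cell and basophil markers were low throughout, with a mean level of 2.46 to 2.67 at weeks 7 and 9 and 2.54 to 2.62 in untreated kidneys. Cpa3, the mast cell carboxypeptidase, was at 1.47 to 2.13 in late and 2.13 to 2.61 in untreated kidneys, close to the control probes. Of the 9 markers 1 passed as lower at each late week, 11.1% against 6.83% and 7.57% of all 17097 genes at weeks 7 and 9, and the list medians were 0.04 and -0.003.

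Every kidney of the week lay below every untreated kidney in 3 of 8 enzymes at week 7 and 7 of 8 at week 9, against 5.11% and 8.91% of genes. The enzymes were chosen on these weeks, so nothing is read from these counts and no count of passes is given. The median difference was -1.12 and -1.02 over the 8 enzymes and 0.03 and -0.03 over all genes.

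**Figure D2:**
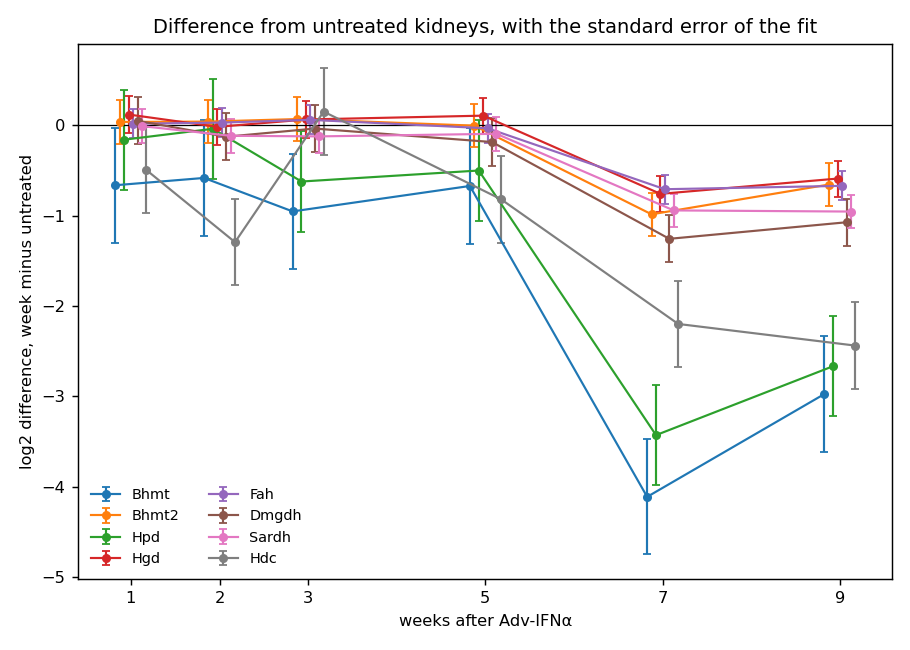
Log2 difference from untreated kidneys (vertical axis) by weeks after Adv-IFNα (horizontal axis) for the 8 enzymes, with bars for the standard error of the fit and points shifted sideways for legibility. Bhmt, Hpd and Hdc stand apart from the other 5 at weeks 7 and 9, reaching -4.11 in Bhmt.

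Earlier in the course no enzyme passed the test, 0 of 8 at weeks 1, 2, 3 and 5, where 0.316%, 0.398%, 0.269% and 0.79% of all genes did as lower. The lowest limma adjusted p of any enzyme in these weeks was 0.178, for Hdc at week 2. The tyrosine steps Hgd and Fah stayed between 10.29 and 10.73 and between 10.21 and 10.59 in the 20 kidneys of these weeks, and Bhmt2 between 8.60 and 9.01. Dmgdh spanned 7.63 to 8.26 and Sardh 6.84 to 7.36, both across their untreated values. On the brightest probe sets the differences of these 5 enzymes at weeks 1 to 5 lay between -0.19 and 0.12, with standard errors of 0.16 to 0.26. The dimmer second probe set of Hgd differed by -0.27, -0.38, -0.30 and -0.40 at weeks 1, 2, 3 and 5 (SE 0.21) and did not pass. There every kidney of weeks 1, 2 and 3 lay below every untreated kidney, as at weeks 2 and 3 in 5.27% and 3.57% of genes.

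In Bhmt nearly all early kidneys already lay below the untreated ones. It was at 6.87, 7.13, 6.73, 7.65 and 6.79 in week 1, at 7.15, 7.47, 6.75, 7.40 and 6.79 in week 2, at 6.87, 6.67, 6.45, 6.66 and 7.07 in week 3 and at 6.49, 7.16, 6.87, 7.49 and 7.12 in week 5. Every kidney of weeks 2, 3 and 5 and 4 of 5 kidneys of week 1 lay below the lowest untreated kidney, at 7.57. Such separation was seen in 5.27%, 3.57% and 4.18% of genes at weeks 2, 3 and 5. The differences of -0.66, -0.58, -0.95 and -0.67 at weeks 1, 2, 3 and 5 did not pass (limma adjusted p = 0.701, 0.731, 0.535 and 0.643), with a standard error of 0.64 estimated over all groups. Its SD was 1.80 at week 7 and 1.59 at week 9, against 0.24 at week 3 and 0.15 in untreated kidneys. In a fit of week 3 and untreated arrays alone Bhmt passed (adjusted p = 0.00804), as did 0.105% of genes as lower.

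Some other measures differed in these weeks as well. The beta-actin ratio was at 1.68 to 2.10 in the kidneys of weeks 1 to 5 and at 1.47 to 1.75 in untreated kidneys. Alb, the albumin transcript of liver, was at 6.14, 6.63, 6.21, 5.85 and 6.24 in week 2 and at 5.52, 6.10, 5.74, 6.81 and 6.79 in week 3, against 6.97, 7.15 and 7.29 in untreated kidneys, and the mean level of 12 liver markers was 5.01 to 5.47 in week 2 and 5.05 to 5.34 in week 3, against 5.32 to 5.46 in untreated kidneys. The genes of that list went both ways, and 0 of 12 passed at weeks 2 and 3, with median differences of -0.04 and -0.10. In week 2 the median levels of Cyp2e1 (8.41, against 8.02 in untreated kidneys), Apoc3 (7.01, against 6.74) and Fgg (7.25, against 6.83) were above those of untreated kidneys. Those of the apolipoproteins Apoa1 (4.15, against 4.99), Apoa2 (3.71, against 4.46) and Apob (6.13, against 6.47) were below. In week 3 the median of Cyp2e1 was below as well, at 7.71. Bhmt and Hpd are abundant in liver too. The part of liver RNA in the low early Bhmt was not tested. In a fit that also held the beta-actin ratio, the Bhmt difference was -1.42 at week 3 and no enzyme passed at weeks 1 to 5.

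Hpd was at 7.13, 6.86, 6.73, 7.09 and 6.80 in week 3, all under the untreated values of 7.69, 7.54 and 7.41, and at 6.19, 7.05, 6.82, 7.92 and 7.23 in week 5, which spread to both sides of them. Its differences were -0.16, -0.04, -0.62 and -0.50 at weeks 1, 2, 3 and 5 (limma adjusted p = 0.936, 0.984, 0.668 and 0.704).

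Hdc, the histamine-forming enzyme, had its lowest early mean in week 2 (6.82) and its highest in week 3 (8.26). It was at 8.11, 7.39, 8.09, 6.29 and 8.19 in week 1, at 6.32, 6.29, 7.04, 6.92 and 7.51 in week 2, at 8.06, 8.46, 7.94, 8.03 and 8.81 in week 3 and at 6.56, 7.98, 7.42, 7.19 and 7.30 in week 5. All 5 kidneys of week 2 lay below the untreated kidneys, as in 5.27% of genes. They also lay below all 5 kidneys of week 3, which overlapped with untreated. How many genes separate weeks 2 and 3 in this way was not counted. The difference from untreated was -1.29 at week 2 (SE 0.48, limma adjusted p = 0.178), 0.15 at week 3 (adjusted p = 0.931) and -0.82 at week 5 (adjusted p = 0.393). In a comparison chosen after the values had been seen, the mean of week 3 exceeded that of week 2 by 1.44 (SE 0.42, adjusted p = 0.736), a step at which 0.0117% of genes passed in either direction. On the second probe set it exceeded it by 0.89 (SE 0.25, adjusted p = 0.736). There the separation was not complete, since week 2 replicate 5 (6.954) lay above 2 of the 3 untreated kidneys (6.55 and 6.75) and level with week 3 replicate 3 (6.953). In a fit of week 2 and untreated arrays alone Hdc passed (adjusted p = 0.0386), as did 0.0936% of genes as lower.

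Bhmt and Hpd varied together within the early weeks. Over the 20 kidneys of weeks 1, 2, 3 and 5, with each week's mean subtracted, their levels correlated at Pearson r = 0.781 (permutation p = 3.1e-04 from 100000 permutations within weeks, adjusted p = 0.00868 over the 28 pairs of enzymes) and Spearman rho = 0.740 (permutation p = 7.2e-04, adjusted p = 0.0202). Without the 2 kidneys farthest from the median of Bhmt, week 1 replicate 4 and week 5 replicate 1, r was 0.680. Of the 28 pairs, a set drawn up after the levels had been seen, 20 correlated above 0 and only this one had an adjusted p below 0.05. The neighbours Bhmt2 and Dmgdh correlated at r = 0.471 (permutation p = 0.0475, adjusted p = 0.365).

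**Figure D3:**
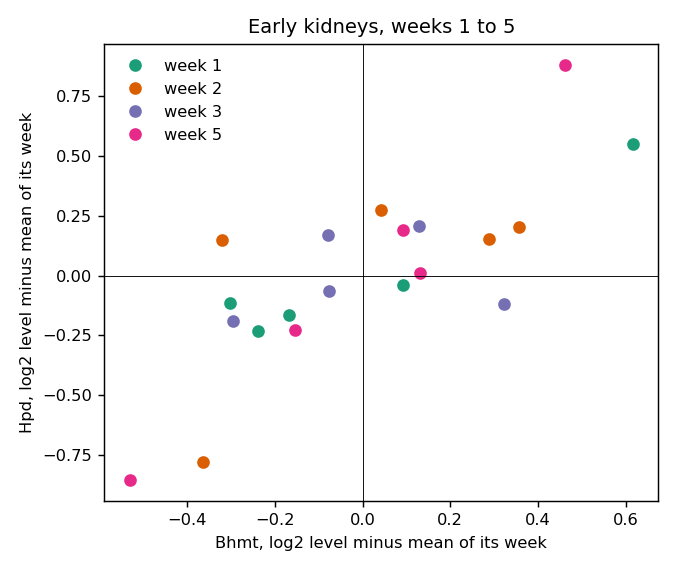
Hpd against Bhmt in the 20 kidneys of weeks 1, 2, 3 and 5, each as log2 level minus the mean of its week, with colours for weeks. Kidneys high in Bhmt for their week were mostly high in Hpd (r = 0.781), with week 5 replicate 1 at the lower left and week 5 replicate 4 and week 1 replicate 4 at the upper right.

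Liver transcripts were high in 2 of these kidneys. Alb was at 8.71 in week 1 replicate 4 and at 9.72 in week 5 replicate 3, above the untreated values of 6.97, 7.15 and 7.29, and Apoa1, the apolipoprotein of high-density lipoprotein, was at 6.60 and 6.98 there, against 5.38, 4.97 and 4.99 in untreated kidneys. Week 1 replicate 4 was the highest of its week in Bhmt (7.65) and Hpd (7.93). In week 5 replicate 3 both were below the untreated kidneys (6.87 and 6.82), and the highest of that week was replicate 4, with Bhmt at 7.49, Hpd at 7.92 and Alb at 7.34.

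Within the late weeks mostly the same kidneys were the highest. Week 7 replicate 4 was the highest of its week in 8 of 8 enzymes, and week 9 replicates 2 and 3 took the top 2 places of theirs in 8 and 7 of 8, while week 9 replicate 1 was the lowest in 7 of 8. At week 7 the lowest kidney differed between enzymes, being replicate 5 in 4, replicate 1 in 3 and replicate 3 in 1. Against the untreated mean, Bhmt differed by -1.03, -1.32 and -1.17 in those 3 upper kidneys, and Hpd by -1.08, -0.93 and -1.67. Fah differed by -0.09, -0.32 and -0.40 there, and Hgd by -0.01, -0.12 and -0.23. Hdc was the exception, at 0.08, -1.58 and -2.62, so that week 9 replicate 3 was the second lowest of its week in that gene. Of the Bhmt levels of these 3 kidneys, 6.67 and 6.53 lay in the lower part of the 6.45 to 7.65 seen in weeks 1 to 5. The level of 6.38 lay just under it.

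**Figure D4:**
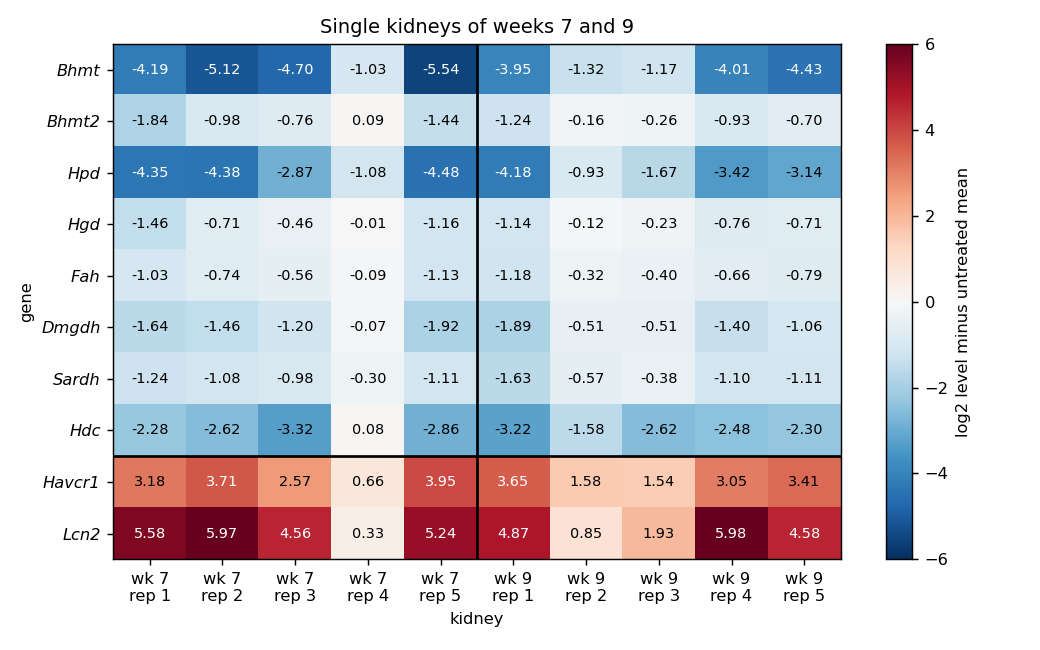
Log2 level minus the untreated mean for the 8 enzymes and the injury markers Havcr1 and Lcn2 (rows) in the single kidneys of weeks 7 and 9 (columns), coloured from blue (below untreated) to red (above). Week 7 replicate 4 and week 9 replicates 2 and 3 are the palest columns, where Lcn2 was 0.33, 0.85 and 1.93 above untreated.

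Markers of injured tubules ran the other way in these 3 kidneys. Lcn2, the lipocalin that stressed tubules release, was at 9.55, 9.93, 8.53, 4.30 and 9.21 in week 7 and at 8.84, 4.82, 5.90, 9.94 and 8.55 in week 9, against 4.37, 3.78 and 3.75 in untreated kidneys. Havcr1 (Kim-1), made by injured proximal tubules, was at 10.06, 10.59, 9.45, 7.54 and 10.83 in week 7 and at 10.53, 8.46, 8.43, 9.94 and 10.29 in week 9, against 7.33, 6.64 and 6.69 in untreated kidneys. The kidneys lowest in both were those highest in the enzymes, except in Hdc for week 9 replicate 3. Ptprc (CD45), carried by all leukocytes, was at 8.51, 7.78, 7.57, 7.96 and 8.19 in week 7 and at 8.63, 7.60, 7.80, 8.20 and 8.47 in week 9, against 6.05, 5.92 and 5.55 in untreated kidneys. Its level in week 7 replicate 4 lay inside the range of that week. In week 9 replicates 2 and 3 were the lowest in Ptprc as well. Ptprc was already at 8.48, 7.01, 7.64, 8.20 and 7.40 in week 5, where no enzyme passed. The part of tubular injury and of leukocyte RNA in the low enzyme levels was not tested.

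Over whole lists, 8 of 9 tubular injury markers rose at week 7 and 7 of 9 at week 9, and 7 and 8 of 13 leukocyte markers did, where 13.2% and 9.05% of all genes rose. The mean of the injury list was 6.18 to 8.47 at week 7 and 6.39 to 8.37 at week 9, against 5.51 to 5.87 in untreated kidneys. The mean of the leukocyte list was 4.63 to 5.41 at week 7 and 4.94 to 5.96 at week 9, against 3.86 to 4.03 in untreated kidneys. As lower, 6.83% and 7.57% of all genes passed at weeks 7 and 9. Of 17 other proximal tubule markers, 11 fell and 1 rose at week 7 and 3 fell and 1 rose at week 9, and of 13 markers of later nephron segments 6 fell at week 7 and 5 fell and 1 rose at week 9. The proximal tubule list averaged 8.56 to 9.70 at week 7 and 8.85 to 9.66 at week 9, against 9.61 to 9.75 in untreated kidneys. Among its members the organic anion transporter Slc22a8 differed by -1.41 (limma adjusted p = 0.0126), the inositol oxygenase Miox by -1.32 (adjusted p = 0.00375) and the urate transporter Slc22a12 by -1.20 (adjusted p = 0.00126) at week 7. Of 12 liver markers, 4 fell and 1 rose at week 7 and 2 fell and 1 rose at week 9. Alb fell by 1.89 at week 9 (adjusted p = 0.0273), and Fgg, a fibrinogen chain, rose by 2.27 at week 7 (adjusted p = 1.6e-04). The part of liver RNA in the late enzyme levels was not tested. The calcium buffer Pvalb of the distal tubule fell by 3.06 at week 7 (adjusted p = 9.6e-04).

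The rest of amino acid metabolism was read from 92 measured genes of 112 listed around the enzymes, drawn up with earlier results of these data known. At week 7, 53 of the 92 fell and 3 rose, and at week 9, 45 fell and 2 rose, 57.6% and 48.9% as lower against 6.83% and 7.57% of all genes. At week 5, 0 of the 92 passed as lower, and 3 did when untreated replicate 2 was left out. Their median difference was -0.52 and -0.49 at weeks 7 and 9, against 0.03 and -0.03 over all genes. The number lower at week 9 depended on the fit, at 26 without week 9 replicate 1, 15 with week 9 and untreated arrays alone (1.92% of all genes) and 13 with the beta-actin ratio in the fit (1.66% of all genes). At week 7 it was 17 in a fit of that week and untreated arrays alone (1.64% of all genes) and 35 with the beta-actin ratio in the fit (3.3% of all genes).

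**Figure D5:**
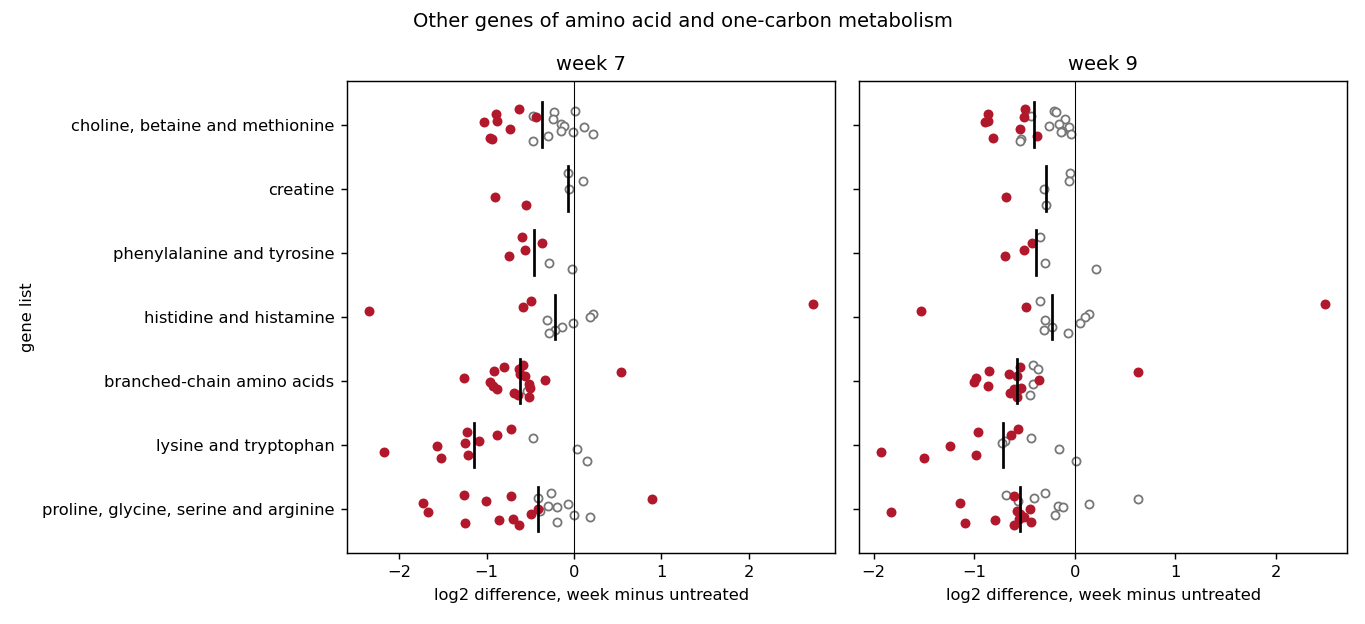
Log2 difference from untreated kidneys (horizontal axis) of the 92 other genes of amino acid metabolism by list (rows), at week 7 (left) and week 9 (right). Filled red points passed the test, open points did not, and bars mark list medians, which are all below 0 and lowest for lysine and tryptophan (-1.15 at week 7).

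Around the betaine route, 8 of 20 genes fell at week 7 and 8 at week 9. Gnmt, which methylates glycine to sarcosine and so feeds Sardh, fell by 1.03 (5.11 ± 0.64 in week 7, n = 5, against 6.14 ± 0.09 in untreated kidneys, n = 3, SD, limma adjusted p = 0.00117). Shmt1 and Shmt2, which pass a carbon of serine to folate, fell by 0.97 and 0.94. Chdh, which makes the betaine that Bhmt uses, differed by -0.24 and did not pass at week 7 (adjusted p = 0.0679). In the creatine list 2 of 5 genes fell at week 7, Gamt, the step after Gatm (-0.91, adjusted p = 4.6e-04), and the creatine transporter Slc6a8 (-0.54, adjusted p = 0.0194), and 1 of 5 fell at week 9.

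Of 6 other phenylalanine and tyrosine genes, 4 fell at week 7 and 3 at week 9. Pcbd1, which recycles the cofactor of phenylalanine hydroxylase, differed by -0.74 at week 7 (limma adjusted p = 0.00337) and Ddc, the decarboxylase that makes dopamine, by -0.59 (adjusted p = 0.0384). Tat, the transaminase that forms the substrate of Hpd, was at 2.48 in week 7 and 2.50 in untreated kidneys. Both levels are near the control probes that match no gene (array medians of 1.33 to 1.84), so a fall could be missed.

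The histidine and histamine list moved both ways, with 3 of 11 genes lower and 1 higher at week 7 and 2 lower and 1 higher at week 9. Cndp1, the carnosinase that frees histidine from carnosine, fell by 2.34 at week 7 (4.73 ± 1.23, n = 5, against 7.07 ± 0.29 in untreated kidneys, n = 3, SD, limma adjusted p = 1.5e-04). Aoc1, the diamine oxidase that degrades histamine, rose by 2.74 at week 7 (8.30 ± 1.02, n = 5, against 5.57 ± 0.04 in untreated kidneys, n = 3, SD, adjusted p = 1.5e-04) and by 2.49 at week 9 (adjusted p = 6.2e-04). Hnmt, the methyltransferase of the other route of histamine breakdown, differed by -0.01 at week 7 (adjusted p = 0.981). Of the 92 genes Aoc1 rose most at either week. The histamine-forming Hdc was low in the same weeks.

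Breakdown of branched-chain amino acids had the highest share of lower genes among these lists, with 16 of 18 genes lower and 1 higher at week 7 and 12 lower and 1 higher at week 9. The dehydrogenase subunits Bckdhb (-1.26 at week 7, limma adjusted p = 3.6e-04) and Dbt (6.50 ± 0.37 at week 9, n = 5, against 7.50 ± 0.35 in untreated kidneys, n = 3, SD, adjusted p = 8.0e-04) and the valine enzyme Hibch (-0.93 at week 7, adjusted p = 2.1e-04) fell, and the cytosolic transaminase Bcat1 rose (0.63 at week 9, adjusted p = 0.0110). In the lysine and tryptophan list 9 of 12 fell at week 7 and 7 at week 9, led by the kynurenine route with Ido2 (-2.18), Haao (-1.57) and Kynu (-1.52) at week 7. Of 21 genes of proline, glycine, serine and arginine, 11 fell and 1 rose at week 7 and 12 fell at week 9. They included Gldc of the glycine cleavage system (-1.83 at week 9, adjusted p = 0.00111) and Ass1 of arginine synthesis (-1.73 at week 7, adjusted p = 4.0e-04), while the mitochondrial arginase Arg2 rose by 0.89 at week 7 (adjusted p = 0.0184).

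Of 7 transcription factors of the proximal tubule, 3 fell and 1 rose at week 7 and 1 fell at week 9, where 6.83% and 7.57% of all genes fell and 13.2% and 9.05% rose. Ppara, a nuclear receptor of fatty acid breakdown, differed by -0.93 (limma adjusted p = 0.00179), Cebpa by -0.57 (adjusted p = 0.0206) and Esrra by -0.51 (adjusted p = 0.0346), and Cebpb by 0.54 (adjusted p = 0.0447), all at week 7.

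The genes whose levels followed the mean of the 8 enzymes most closely over the 33 kidneys, treated and untreated groups together, were Khk, Nat8f1 and Eci3 (Pearson r = 0.98 each), Haao (0.98), Kmo (0.97), Galnt11 (0.97), Fmo1 (0.97) and Wfdc15b (0.97). Khk is the fructokinase of the proximal tubule, and Haao and Kmo belong to the kynurenine route. For single enzymes the closest were Dnase1 for Bhmt (0.97), Cndp1 for Hpd (0.97), Khk for Dmgdh (0.97), Selenbp1 for Fah (0.96), Eci3 for Bhmt2 (0.97), Hgd (0.96) and Sardh (0.95), and Cbr1 for Hdc (0.89). These values are a description over early, late and untreated kidneys together, and no test was made of them.

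Leaving out week 7 replicate 4, the differences at week 7 were -4.89 in Bhmt, -4.02 in Hpd, -2.77 in Hdc, -1.55 in Dmgdh, -1.26 in Bhmt2, -1.10 in Sardh, -0.95 in Hgd and -0.86 in Fah, the same order as with it.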

How the data were processed

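RNA of 33 kidneys (30 treated, 3 untreated) was labelled with the NuGEN Ovation system and hybridised to 1 array each. The deposited values are log2 intensities that the authors made with RMA (background correction, quantile normalization and summary of probes, with Partek also named in the submitters' processing notes and no version given), so probe-level choices were not varied. The table held 45141 probe sets, of which 104 controls were left out of tests. The platform annotation gave 1 symbol to 28898 of the rest, several to 551 and none to 15588. Probe sets with 1 symbol were used, the brightest per gene over all arrays, which gave 17097 genes.

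Groups came from the sample labels. Differences, standard errors and adjusted p-values came from limma 3.58.1 (R 4.3.3; lmFit and eBayes, 7 groups, 26 residual degrees of freedom), tested on simulated data first. Correlations and sequences were handled in Python 3.11.15 with numpy 2.4.6, and figures drawn with matplotlib 3.10.9. The enzymes and the gene lists were chosen with earlier results of these data known. Of each metabolic list, up to 3 genes lower and 3 higher with the largest changes at week 7 or 9 among those passing were eligible to be named, up to 4 of each marker list, and the 8 genes most like the enzymes. Chdh, Tat and Hnmt were named for their place in the routes, after their values were seen. Precision is limited by how many arrays each group had. The limma p-values weigh a difference against a spread between mice that is estimated over all 7 groups. Alternatives covered the samples fitted, array weights, a replicate block, the variance prior, a filter on probe sets under 5 on the log2 scale, averaged probe sets of a gene, further scaling, the beta-actin ratio, a 2-fold minimum and leaving out single arrays. Which kidneys belonged to which of the repeat experiments is not given in the sources used here.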

Additional observations from a re-analysis of the deposited data

Results flagged for a closer look

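Of 48 sets of 5 kidneys (8 enzymes in 6 weeks), 3 held a kidney far from the others of its week by Dixon's criterion, which chance alone meets in about 1 in 20 sets. Hpd was at 7.93 in week 1 replicate 4, the kidney with high liver transcripts, where the nearest other kidney of that week was at 7.34. Hpd was at 6.73 in week 2 replicate 3, where the nearest was at 7.65. Sardh was at 6.88 in week 7 replicate 4, where the nearest was at 6.20.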

How the results depend on the processing

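The enzymes were chosen on weeks 7 and 9, so the number of them passing there, and its change with the fit, are not given. Of the counts of the 92 other metabolic genes passing, those that moved by over 1.5 times did so as follows. Fitting only the late week and untreated arrays gave 17 and 15 of the 92 lower and 1 and 1 higher at weeks 7 and 9. With the beta-actin ratio added to the fit 35 and 13 of the 92 were lower and 1 was higher at week 9. Asking for over 2-fold as well left 15 and 8 of the 92 lower and 1 and 1 higher. By size alone, 4 enzymes (Bhmt, Hpd, Dmgdh and Hdc) were over 2-fold lower at each late week, which is a description with no test. Leaving out single arrays gave 0 to 0 enzymes lower at week 5. For the 92 it gave 43 to 59 lower at week 7, 26 to 51 at week 9 (26 without week 9 replicate 1) and 0 to 3 at week 5 (3 without untreated replicate 2), and 1 to 3 higher at both late weeks. The enzyme differences at weeks 7 and 9, on which the enzymes were chosen, kept their sign under these alternatives. Hdc at week 9 was -1.81 as the mean of its probe sets and -3.07 with the beta-actin ratio added, and passed at week 2 with only those 2 groups (adjusted p = 0.0386), as did Bhmt at week 3 (adjusted p = 0.00804), and the cause was not tested. The limma fit with the replicate number as a block gave 54 and 44 of the 92 lower at weeks 7 and 9. Kidneys of equal number did not deviate together on average (mean r = -0.003 over 93 pairs, 0.001 over 372 pairs of unequal number). Of 33 kidneys, 10 matched best with one of their own number. The labels do not say what kidneys of equal number share, and a shared batch was not tested. With 3 untreated kidneys and a variance shared over 7 groups, the tests at weeks 1 to 5 can also miss changes larger than the standard errors given. Hdc at week 2, for example, differed by -1.29 with an SE of 0.48 and did not pass there (limma adjusted p = 0.178). It passed with the same 3 untreated kidneys in the fit of those 2 groups alone.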
